A study of Mus musculus with 2 samples.

Results

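Mir126a and Mir139 were the microRNA genes examined here, 2 of the 1973 gene rows counted in whole hearts of newborn mice. They were taken by annotation, as the rows whose Ensembl identifiers map to Mir126a, within Egfl7, and to Mir139, within Pde2a. The choice was made with earlier results of these data known. The pups were of the strain B6NCrl and were taken on the day of birth, age 0 days, and the labels name total RNA and a size range under 30 nt. Both libraries form 1 group with no treatment, mutant or other age, and they carry the same donor record. Pup 1 gave replicate 1 and pup 3 gave replicate 2, as single hearts with 1 library each. Whether these pups were littermates was not given in the sources used here.

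MicroRNAs are cut from hairpin precursors and guide Argonaute proteins to messenger RNAs, which they recognise mainly through the seed near their 5′ end. The microRNA of the Mir126a gene is a well-known product of endothelial cells, where it favours vascular endothelial growth factor signalling through its targets Spred1 and Pik3r2, and loss of the gene in mice impairs vessel integrity. Its host Egfl7 encodes a secreted protein of endothelial cells, and the host of Mir139, Pde2a, encodes a phosphodiesterase that breaks down cyclic nucleotides. Whole-heart libraries do not show which cells held either microRNA, so the endothelial label is background here and was not tested.

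Mature strands and hairpins are shown first because the seeds of the strands printed set them apart from other microRNAs in the table. A further reason is that a second gene lies over Mir126a. They were taken from RefSeq on GRCm38.p6, the patch release of the build mm10 that the counts used, and are written 5′ to 3′ with the seed, bases 2 to 8, in capitals. The last strands shown come from Mir126b, a gene annotated on the opposite strand of Mir126a.
mmu-miR-126a-3p: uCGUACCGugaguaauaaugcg
mmu-miR-139-5p: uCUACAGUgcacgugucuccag
mmu-miR-139-3p: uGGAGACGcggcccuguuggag
mmu-miR-126b-5p: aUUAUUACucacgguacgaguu
mmu-miR-126b-3p: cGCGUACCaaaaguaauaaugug

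None of the other genes among 1738 mature strands in that table had the seed of miR-126a-3p, of miR-139-5p or of miR-139-3p. With bases 2 to 7 alone, miR-139-3p matched a strand of Mir6397, a gene with 0 counts in both libraries. Bases 2 to 7 of miR-126a-3p also occurred in miR-126b-3p, but starting at base 3 there, so that the seeds are offset by a base. GC content was 45.5% for miR-126a-3p, 54.5% for miR-139-5p and 68.2% for miR-139-3p.

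Hairpins are given with the mature strands printed above in capitals, to show how the antisense gene lies over Mir126a. The gene Mir126a also gives miR-126a-5p, which was not among the mature strands used here, so its seed was not searched. A gene's count does not separate its arms, so the counts below are of the whole gene and not of a single strand. Mir126a lies at chr2:26591357-26591429 on the plus strand, Mir139 at chr7:101475376-101475443 on the plus strand, and Mir126b at chr2:26591363-26591420 on the minus strand, all on mm10.
Mir126a: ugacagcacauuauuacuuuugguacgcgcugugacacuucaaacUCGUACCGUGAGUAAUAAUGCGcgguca
Mir139: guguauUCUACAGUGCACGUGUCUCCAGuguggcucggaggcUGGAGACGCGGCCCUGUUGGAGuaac
Mir126b: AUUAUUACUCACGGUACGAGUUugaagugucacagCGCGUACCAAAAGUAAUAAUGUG

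The Mir126b hairpin is the reverse complement of 58 of the 73 bases of the Mir126a hairpin, starting at base 7. On the genome miR-126b-5p overlaps miR-126a-3p, on the other strand, by 19 nt. As written, miR-126a-3p and miR-126b-3p share a stretch of 10 nt, from base 11 of the first and base 12 of the other. Reads of the antisense gene therefore differ from those of Mir126a in sequence and in strand, although both come from the same bases.

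Neither Mir126a nor Mir139 shared any 20 nt of its precursor, on either strand, with another annotated microRNA precursor outside its own locus, while 80 of the 358 genes with 10 or more counts in both libraries did. Reads that matched several places were listed apart from the genes and made up 35.9% of reads in replicate 1 and 34.6% in replicate 2. The counts of these 2 genes are thus not split with a copy among the annotated precursors. The Mir126a hairpin is 73 nt with 45.2% GC and a predicted folding energy of -31.2 kcal/mol, and that of Mir139 is 68 nt with 58.8% GC and -35.6 kcal/mol. Over the 311 detected genes with a hairpin in the table the medians were 83 nt, 50.9% GC and -36.6 kcal/mol. Per nucleotide, 47 of those 311 hairpins had a lower predicted energy than Mir139 and 172 had a lower one than Mir126a.

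Both genes lie in introns of protein-coding genes and on the host's strand. Mir126a lies in intron 7 of Egfl7 in transcript Egfl7-202, 293 bp after the exon before it and 234 bp before the next exon, in an intron of 600 bp. It is intronic in 8 of the 9 Egfl7 transcripts that span it, and the other is a retained-intron transcript that covers it as exon. Mir139 lies in intron 2 of Pde2a in transcript Pde2a-202, 23907 bp after the exon before it and 5927 bp before the next, in an intron of 29902 bp. It is intronic in all 10 Pde2a transcripts that span it, and a further coding gene model, Gm45837, also spans it on the same strand.

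**Figure D1:**
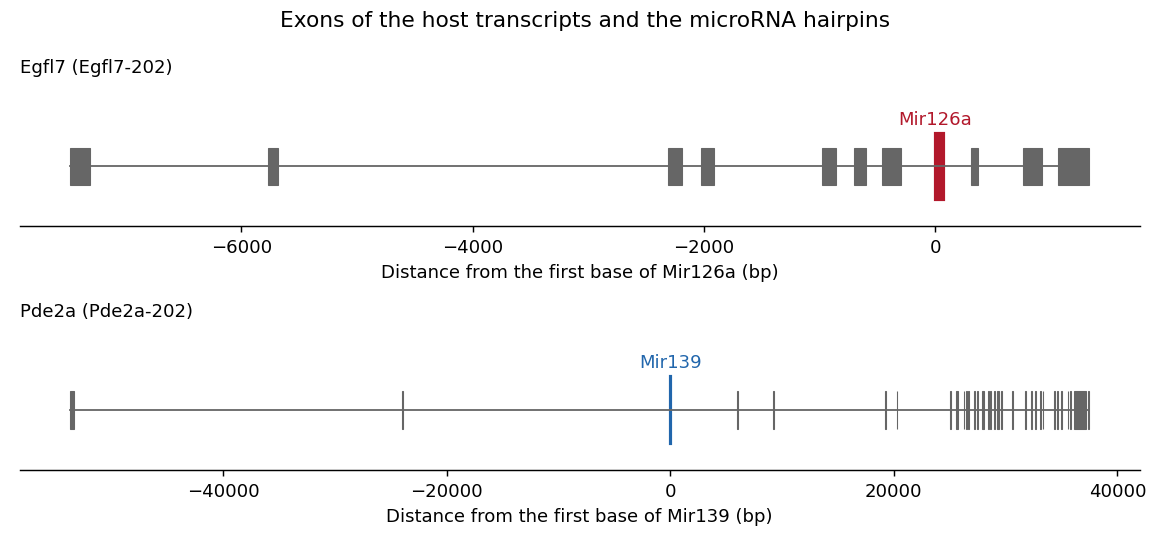
Exons (grey boxes) of Egfl7 transcript Egfl7-202, above, and Pde2a transcript Pde2a-202, below, with the hairpins of Mir126a (red) and Mir139 (blue), drawn to scale, with a minimum line width, against distance in bp from the first base of each hairpin. Mir126a fills part of a 600 bp intron, and Mir139 lies deep in an intron of 29902 bp.

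Of the 358 detected genes, 150 lay in an intron of a protein-coding gene on its strand, in introns with a median length of 6679.5 bp. Of these 150 genes, 18 lay in an intron shorter than that of Mir126a and 108 in an intron shorter than that of Mir139. Apart from Mir126b, which overlaps Mir126a, the nearest annotated microRNA gene is 121238 bp from Mir126a and 405741 bp from Mir139. Counting only genes that do not overlap, 174 of the 358 detected genes, 48.6%, have another within 10000 bp. Host transcripts were not measured in these libraries, so the levels of the microRNAs cannot be set beside those of Egfl7 or Pde2a.

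Gene counts were raw reads per gene, totalling 6373797 on the sense strand in replicate 1 and 7630427 in replicate 2, and levels are given as CPM, counts scaled to a total of 1000000. Mir126a (ENSMUSG00000065540.1) had 918557 counts in replicate 1 and 932334 in replicate 2. These were 144115 CPM (exact Clopper-Pearson 95% interval 143842 to 144387) and 122186 CPM (121954 to 122419). Mir126a thus had the highest count in both libraries, with a mean of 133150 ± 15506 CPM (SD, n = 2). As a share of sense counts it was 14.4% in replicate 1 and 12.2% in replicate 2.

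Mir139 (ENSMUSG00000065446.1) had 17470 counts in replicate 1 and 22809 in replicate 2. These were 2741 CPM (95% interval 2700 to 2782) and 2989 CPM (2951 to 3028), a mean of 2865 ± 176 CPM (SD, n = 2). The gene ranked 36 in replicate 1 and 35 in replicate 2. It was thus well above the limit that 3 counts set, 0.471 CPM in replicate 1 and 0.393 CPM in replicate 2, while standing far below Mir126a. Intervals and these limits cover counting error only.

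Mir126a outnumbered Mir139 by 52.6-fold in replicate 1 (95% interval 51.8 to 53.4) and by 40.9-fold in replicate 2 (40.3 to 41.4), a mean of 46.7 ± 8.28. The strands of both genes printed above are 22 nt, so counts were compared without dividing by length. Divided by the length of the precursor, Mir126a still ranked 1 and Mir139 ranked 30. The ratio is of reads captured and sequenced, and differences in capture between sequences were not measured.

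**Figure D2:**
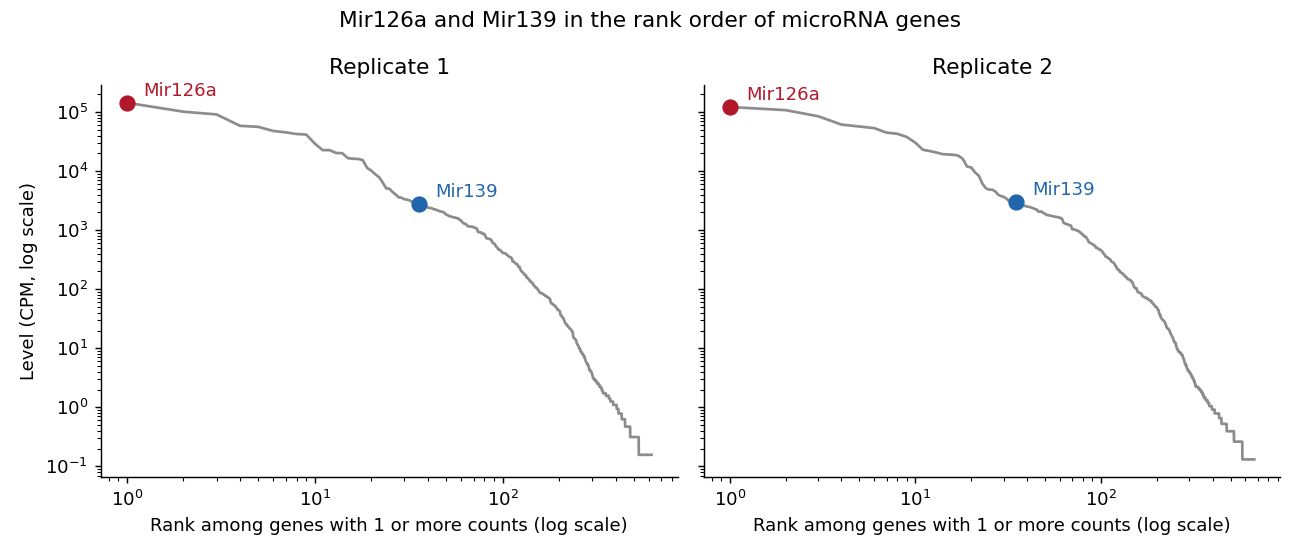
Level in CPM (log scale) against rank (log scale) of every gene with 1 or more sense counts, in replicate 1 on the left and replicate 2 on the right. Mir126a (red) heads both curves at 144115 and 122186 CPM, and Mir139 (blue) lies at ranks 36 and 35.

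The next genes below Mir126a by mean CPM were Mir208b, a microRNA in an intron of the myosin gene Myh7, Mir143, a smooth muscle microRNA, and Mir335, in an intron of Mest. Mir126a led Mir208b by 1.42-fold in replicate 1 but by 1.13-fold in the heart of pup 3. The lower value of Mir126a, 122186 CPM, was still above the higher value of Mir208b, 108150 CPM. The 1949 genes with the fewest counts in replicate 1 together held no more counts than Mir126a alone, and in replicate 2 this held for 1943 genes. Most of these genes were at 0, since only 620 genes had any count in replicate 1 and 671 in replicate 2. Of the counts at detected intronic microRNA genes, Mir126a gave 26.8% and 22.7%, and Mir139, which ranked 18 among those 150 genes, gave 0.509% and 0.555%.

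Just above Mir139 by mean CPM were Mir151, Mir15a and Mir542, and just below it were Mir145a, Mir27b and Mir106b. Mir542 had 2990 and 3041 CPM and Mir15a had 3020 and 2992 CPM, both above the higher value of Mir139, 2989 CPM. Mir151, at 2810 and 3125 CPM, was above Mir139 within each heart but overlapped its range. By mean CPM these 3 genes exceeded Mir139 by less than its SD of 176 CPM. Mir145a had 2627 and 2607 CPM, and the values of Mir145a, Mir27b and Mir106b all lay below both values of Mir139. Mir27b shares sequence with Mir27a and its count is uncertain.

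The share taken by Mir126a depended on which reads formed the total. Of all reads in the files, including those unmapped or matching several places, Mir126a was 6.63% in replicate 1 and 5.40% in replicate 2, and Mir139 was 0.126% and 0.132%. With reads matching several places added to the gene total, Mir126a was 8.09% and 6.85%. Those reads are not assigned to genes in the tables, so the first place of Mir126a holds among counted genes only.

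The hearts differed in both microRNAs, in opposite directions. Mir126a was 1.18-fold higher in replicate 1 than in replicate 2 (95% interval 1.176 to 1.183), a log2 ratio of replicate 1 over replicate 2 of 0.24. Mir139 was 1.09-fold higher in replicate 2 than in replicate 1 (1.07 to 1.11), a log2 ratio of -0.13. By a 2-sided exact binomial test that took the library totals as given, with Benjamini-Hochberg adjustment over 435 genes, the adjusted p was 5.27e-17 for Mir139 and too small to be represented for Mir126a. The test sets 1 library against another, not a condition against another, and allows for sampling noise alone.

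Both genes therefore passed, where 31.0% of all genes tested did, 12.0% higher in replicate 1 and 19.1% higher in replicate 2. These were 52 and 83 genes, and with Mir126a left out of the total they were 65 and 69. Among the 58 genes with 10000 or more counts in each library, to which both belong, 77.6% were called. Among those 58 genes the median absolute log2 ratio was 0.09, and 10 had a larger one than Mir126a and 21 a larger one than Mir139. The largest was that of Mir351, at 0.52, a gene named after its value was seen. The gap of Mir126a between hearts was thus above the median for its depth and inside the range.

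Counting error was small beside this spread. It was 0.104% of the count for Mir126a in both libraries, and 0.757% and 0.662% for Mir139, while the SD between hearts was 11.6% of the mean for Mir126a and 6.13% for Mir139. With 1 library per heart, a difference between animals cannot be told apart from a difference between library preparations. When a biological coefficient of variation of 0.1 between hearts was allowed for, in an edgeR exact test, neither gene passed, with unadjusted p of 0.244 for Mir126a and 0.542 for Mir139.

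**Figure D3:**
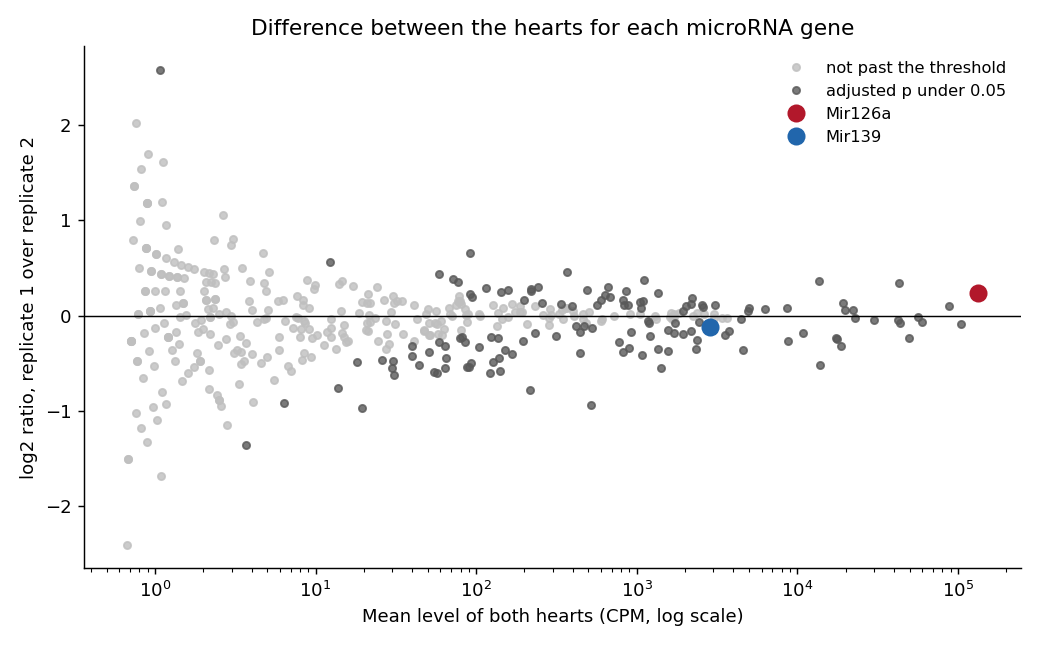
Log2 ratio of replicate 1 over replicate 2 against mean level in CPM (log scale) for the 435 genes tested, dark where the adjusted p was under 0.05 and light otherwise. Mir126a (red) lies above 0 at 0.24 and Mir139 (blue) below it at -0.13.

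The ratio of Mir126a to Mir139 needs no library total, and it was 1.29-fold higher in replicate 1 than in replicate 2 (95% interval 1.26 to 1.31, 2-sided Fisher's exact test on the counts, p = 1.31e-136). That interval and p-value cover counting error only, and no preset spread between hearts was tried for this ratio. Since Mir126a itself is a large part of the total, its excess in replicate 1 lowers the CPM of every other gene there. Without Mir126a in the total, Mir139 had 3202 CPM in replicate 1 and 3405 CPM in replicate 2, a log2 ratio of -0.09 that still passed. Over all reads in the files the log2 ratio was 0.30 for Mir126a and -0.07 for Mir139. The opposite signs were present under every scaling tried.

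**Figure D4:**
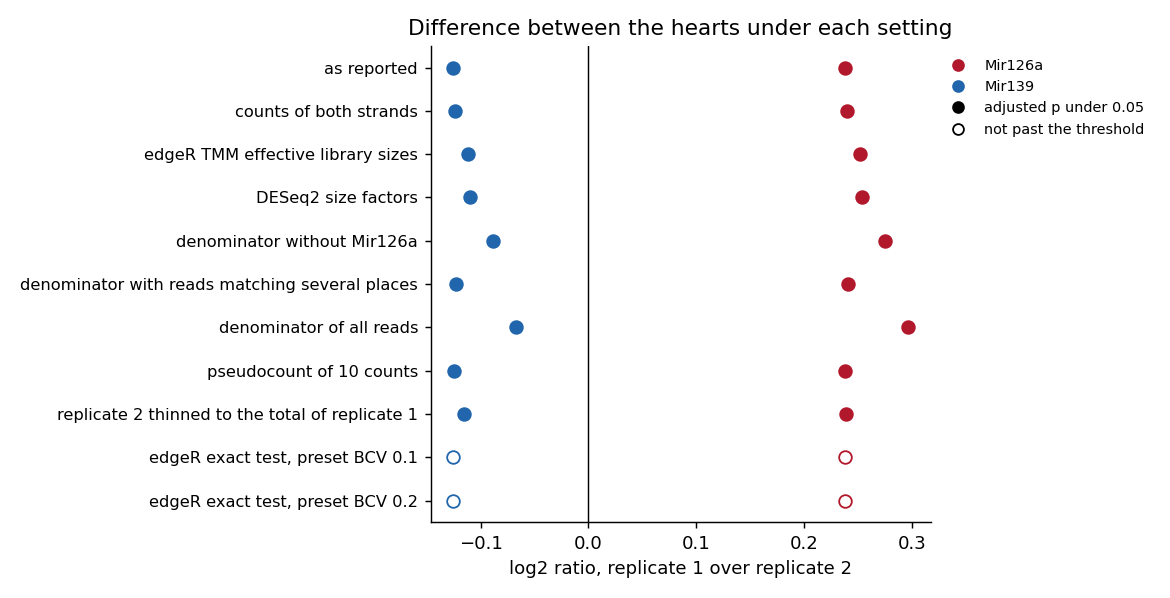
Log2 ratio of replicate 1 over replicate 2 for Mir126a (red) and Mir139 (blue) under each setting, filled where the adjusted p was under 0.05 and open where it was not. Mir126a lies right of 0 and Mir139 left of it in every row, and the 2 settings with a preset spread are open.

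The genes with ratios between hearts most like those of Mir126a and Mir139 were taken from 133 genes with 1000 or more counts in each library, by the smallest difference in log2 ratio over these 2 libraries. For Mir126a they were Mir101b, Mir181a-1, Mir467c, Mir125b-2 and Mir467d, with log2 ratios of 0.21 to 0.27. Each of these 5 shares 20 nt with another microRNA gene, so their counts are uncertain. For Mir139 they were Mir676, Mir34a, Mir185, Mir301 and Mir433, with log2 ratios of -0.15 to -0.10, of which that of Mir433 did not pass the test. Likeness over 2 libraries is a description of those libraries.

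Reads on the opposite strand were nearly absent at both genes. At Mir126a there were 21 in replicate 1 and 21 in replicate 2, which was 0.00229% (exact Clopper-Pearson 95% interval 0.00142 to 0.00349) and 0.00225% (0.00139 to 0.00344) of the counts at the locus. Mir126b is annotated on that strand and is not among the genes counted, so its reads would fall in this column. The reads there cannot be assigned to Mir126b from the counts alone. Mir139 had 0 opposite-strand counts in both libraries, which allows a share of up to 0.0172% in replicate 1 and 0.0132% in replicate 2.

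Among the 236 genes with 100 or more sense counts in each library, 207 had 0 opposite-strand counts in both. By share, 17 genes in replicate 1 and 18 in replicate 2 stood above Mir126a, and by count 3 genes did in each. Mir126a is 1 of 12 of these genes with a microRNA annotated on the other strand. At Mir486, an erythroid microRNA gene with Mir3107 opposite it, the share was 5.42% and 6.37%. At Mir3074-1, opposite Mir24-1 and named after its value was seen, it was 68.1% and 69.4%, the highest share among the 236 genes in both libraries. The share at Mir126a was below those at both loci.

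Set beside markers of other cell types, Mir126a was of the same order as Mir208b and Mir143, the leading muscle microRNAs among counted genes. In bulk hearts, fewer cells of a type and less RNA per cell cannot be told apart. Mir126a exceeded the summed cardiac muscle list, Mir208b, Mir208a, Mir499 and copies of Mir1a and Mir133a, by 1.18-fold in replicate 1, but was 0.977 of it in replicate 2, so that the order of Mir126a and this sum differed between hearts. Of the 6 cardiac genes counted, Mir1a-1, Mir133a-1 and Mir133a-2 have repeated sequence, so that sum leaves out reads that matched several places, and Mir1a-2 has no count row.

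Mir126a exceeded the smooth muscle microRNAs Mir143 and Mir145a together by 1.53-fold in replicate 1 and by 1.39-fold in the other heart, and the mesenchyme and fibroblast list, led by Mir21a, by 6.60-fold and 6.08-fold. Mir139 alone was close to Mir145a and was 0.0291 and 0.0341 of the smooth muscle list. In the mesenchyme list the 3 Mir199 genes have repeated sequence. Smooth muscle microRNAs took 9.41% of counts in replicate 1 and 8.77% in replicate 2, the same direction as Mir126a. Of them Mir143 was higher in replicate 1, at 91427 and 85077 CPM, and Mir145a did not pass the test. Cardiac muscle microRNAs took 12.2% and 12.5%, the opposite direction, which was that of Mir208b. Mir208a, at 15419 and 11988 CPM, and Mir499, at 5106 and 4847 CPM, were higher in replicate 1. The Mir1a and Mir133a genes did not pass. Without Mir126a in the total, the SD of the cardiac share between hearts was 0.0319 percentage points, in place of 0.193. The part of these shares in the difference of Mir126a between hearts was not tested.

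As counted, microRNAs of blood cells were below both genes. Mir126a was 129 times the summed erythroid list, Mir451a, Mir144 and Mir486, in replicate 1 and 88.6 times it in replicate 2. Mir139 was 2.46 and 2.17 times it. Sequence shared between overlapping genes was not looked for, and Mir3107 overlaps Mir486 and Mir451b overlaps Mir451a. The erythroid sum may thus leave out reads that matched several places. The leukocyte list, Mir223, Mir155, Mir150 and Mir146, the table's name for Mir146a, was exceeded 229-fold and 180-fold by Mir126a and 4.35-fold and 4.40-fold by Mir139. Mir146 shares sequence with Mir146b and its count is uncertain. Mir142 of that list has no row of its own, but 4043 reads in replicate 1 and 3958 in replicate 2 lay on its strand at the overlapping gene Mir142b, in the opposite-strand column. With those reads added, Mir126a was 114 and 102 times the leukocyte sum, and Mir139 was 2.17 and 2.50 times it. The erythroid list was 0.111% of counts in replicate 1 and 0.138% in replicate 2, with Mir451a at 931 and 1237 CPM but Mir144 at 112 and 71.2 CPM, and the part of blood in either microRNA's difference was not tested.

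As counted, markers of tissues outside the heart were lower still. The epithelial list, led by Mir203, took 0.0326% and 0.0300% of counts, Mir206 and Mir133b of skeletal muscle took 0.00767% and 0.0110%, and the hepatocyte microRNA Mir122 took 0.00358% and 0.00446%. Mir133b has repeated sequence, so the skeletal muscle sum leaves out reads that matched several places. Mir139 exceeded the epithelial sum by 8.41-fold and 9.96-fold. Of the 5 neuronal genes counted, 4 were at 0 in each library, namely the Mir124a genes and Mir9-2. The sequence of each of the 5 is repeated elsewhere, so reads that match several places are missing from them.

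**Figure D5:**
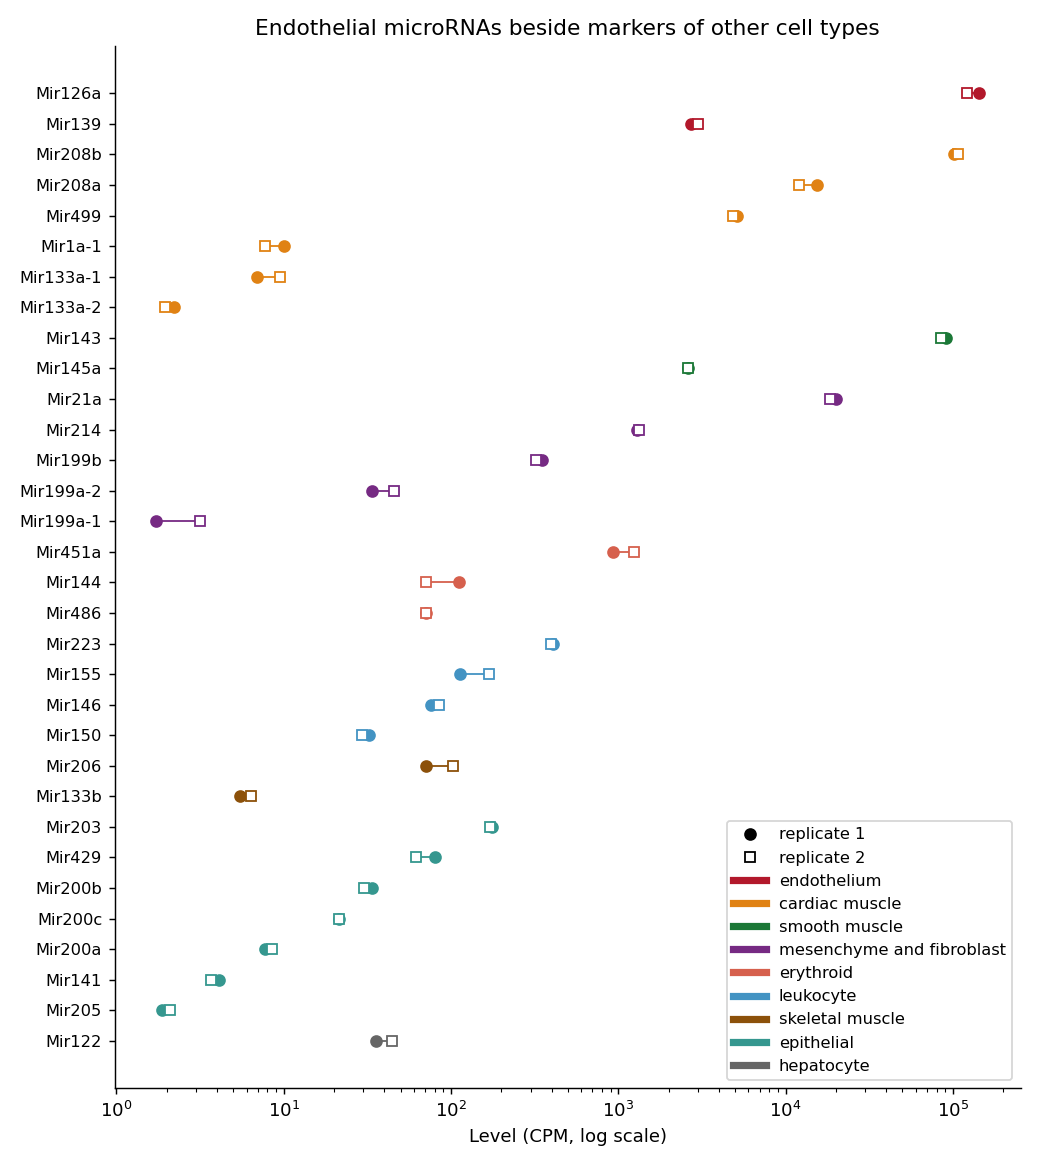
Level in CPM (log scale) of Mir126a and Mir139 and of marker genes of 8 other cell types, with filled circles for replicate 1 and open squares for replicate 2. Mir126a stands beside Mir208b and Mir143 at the right and Mir139 beside Mir145a, and the neuronal genes, at or near 0, are not drawn. Genes with repeated sequence, among them Mir1a-1, Mir133a-1 and Mir133a-2, are drawn without reads that matched several places.

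MicroRNAs linked to angiogenesis, the growth of new vessels, but not limited to endothelium formed a list of 23, of which 22 were counted. All 22 had 10 or more counts in both libraries, and together they took 8.45% of counts in replicate 1 and 8.84% in replicate 2. Mir126a alone was 1.70 and 1.38 times this sum. The genes of this list named after Mir23a were picked with their values seen. The list was led by Mir23a at 22669 and 23031 CPM, Mir130a at 20318 and 19441 CPM and Mir23b at 16223 and 19220 CPM. Mir23a and Mir23b share sequence, so their counts are uncertain.

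Between hearts, 9 of the 22 were higher in replicate 1 and 6 in replicate 2 by the exact binomial test adjusted over all 435 genes, and 7 did not pass. Over all genes tested the shares were 12.0% higher in replicate 1 and 19.1% higher in replicate 2, and 77.6% in either direction at 10000 or more counts in each library. The list's median log2 ratio of replicate 1 over replicate 2 was -0.01, beside -0.02 over all genes tested. Mir17, from a cluster that promotes proliferation, was higher in replicate 2, with 7888 and 9492 CPM in replicates 1 and 2. So were Mir20a of the same cluster, with 3548 and 3975 CPM, and Mir92-1, with 1146 and 1194 CPM. The other genes of that cluster in the list did not pass, namely Mir18, with 1294 and 1295 CPM, Mir19a and Mir19b-1. Mir210, a hypoxia-induced microRNA, was higher in replicate 1, with 1106 and 1003 CPM, as was Mir27a, with 725 and 633 CPM. In this list 9 genes, Mir27a, Mir19b-1 and Mir92-1 among them, have repeated sequence.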

How the data were processed

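The authors deposited 1 table of counts per gene for each library, with 3 columns of whole numbers and no header. Per the accompanying text of the deposited files, reads were aligned to mm10 and counted over GENCODE M4. Aligner, counter and trimming were not given in the sources used here. In each gene row the first column is the other columns added together. The second was read as the strand of the gene, since it holds 92.9% and 92.8% of gene counts, and the third as the opposite strand. Totals exclude the rows without a gene (unmapped reads were 12.6% and 15.5%, and reads in no gene 1.93% and 2.28%). Of 1973 identifiers 1894 were named from GENCODE M21, on the same build. CPM used the sense-strand total.

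With 1 group no contrast between conditions exists, so libraries were compared by 2-sided exact binomial tests given the totals, for genes with 10 or more counts in both libraries together. P-values were adjusted by Benjamini-Hochberg, with 0.05 as the threshold, and 0.5 counts were added before log2 ratios. On simulated data with sampling noise only (433 genes tested, 200 of them changed, all of these with 100 or more counts), the test between the hearts recovered 72.0% of 1.25-fold changes, 94.0% of 1.5-fold ones, 98.0% of 2-fold ones and 100% of 4-fold ones. It called 3.00% of the unchanged genes. The simulated libraries were scaled by the totals of the unchanged genes, which are known only there. The test on the hearts used full library totals, so these rates do not cover a shift in those totals.

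Named genes were Mir126a, Mir139 and the gene overlapping on the other strand, the 3 genes next above and below each by mean CPM, the 5 nearest in ratio between hearts, members of the endothelium, smooth muscle, cardiac muscle, erythroid and leukocyte lists, the most abundant member of other lists, and seed relatives; others are said to be chosen by value. The endothelium list holds Mir126a and Mir139 alone. The genes examined and the lists were chosen with earlier results of these data known. Alternatives covered strand, totals, TMM and DESeq2 size factors, filters, pseudocount, thinning and a preset spread. Tools were DESeq2 1.42.0 for size factors, edgeR 4.0.16 in R 4.3.3, and Python 3.11.15 with SciPy 1.17.1, pandas 2.3.3, ViennaRNA 2.7.2 (RNAfold, default settings) and matplotlib 3.10.9.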

Additional observations from a re-analysis of the deposited data

Results flagged for a closer look

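Opposite-strand counts at Mir126a, in a column that the levels do not use, were 21 in each library, above the 3 counts that a value of 0 would allow.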

How the results depend on the processing

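Mir126a kept rank 1 under every alternative tried. Its mean level was 74721 CPM with reads matching several places in the total, 60146 CPM over all reads and 153787 CPM with Mir126a left out of the total. That of Mir139 was 1608, 1291 and 3304 CPM under the same totals, and 2659 CPM with counts of both strands. The rank of Mir139 was 38 with both strands and 30 per precursor length. The totals shown set these moves in level by construction, but not those in rank. Without Mir126a the endothelium list, then Mir139 alone, was 0.330% of counts. Leaving out each heart gave 122186 to 144115 CPM for Mir126a, 2741 to 2989 CPM for Mir139, ranks 35 to 36 for Mir139, a ratio of 40.9 to 52.6 and a list share of 12.5% to 14.7%.

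With a preset coefficient of variation of 0.1 or 0.2 the log2 ratios were still 0.24 and -0.13, but neither gene passed (edgeR exact test, unadjusted p 0.244 and 0.562 for Mir126a, 0.542 and 0.761 for Mir139). Under these settings 1 gene (Mir181b-2, log2 ratio -0.94, named after its value was seen) and 0 genes differed between hearts, where the binomial test gave 135, with 29 and 4 at an unadjusted p under 0.05. All 16 other alternatives for the 2 log2 ratios kept direction and call. Of 41 alternatives for the other lists' shares, 27 stayed within the SD between hearts. Those that leave out 1 of 2 hearts stay within it by construction. With counts of both strands 5 of 10 list shares stayed within it, and with Mir126a left out of the total 2 of 10 did. Adding the reads on the strand of Mir142, chosen after seeing the data, gave the leukocyte list a mean of 0.123% of counts in place of 0.0655%. Depth does not limit either gene, but 2 hearts do. No paired analysis was possible because there is 1 group.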
